A study of Rattus norvegicus with 50 samples.

Results

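The genes described here encode the enzymes that turn arachidonic acid into leukotrienes and prostaglandins in the rat lung. The 10 genes Alox5, Alox5ap, Lta4h, Ltc4s, Alox15, Ptgs1, Ptgs2, Ptges, Hpgds and Ptgis were chosen by name, and the array's annotation named 8 of the 10, each by 1 probe set, among 14557 named genes. Ptges and Ptgis were not analysed here. The probe sets were 17794071 for Alox5, 17675589 for Alox5ap, 17827561 for Lta4h, 17655837 for Ltc4s, 17658088 for Alox15, 17761738 for Ptgs1, 17680795 for Ptgs2 and 17791714 for Hpgds.

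Lung mRNA of male Sprague-Dawley rats, bought at 9 weeks of age, was measured on 50 microarrays. The PEP rats inhaled particles emitted by a laser printer, together with the gases the printer gave off, by whole-body exposure for 5 hours a day, and the Air rats were kept in HEPA-filtered air on the same schedule. Lungs of 5 Air and 5 PEP samples were profiled at each of days 1, 5 and 9, and of 6 and 6 at day 21, to ask which lung transcripts differed as the exposure went on. A further 4 Air and 4 PEP samples of day 21 came from rats that carried a radio telemetry implant. No label states whether each array was a separate rat or in which exposure run it was taken, so the p-values reflect only how far these samples differed from each other, which may be technical, and run and group cannot be told apart.

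Arachidonic acid is cut from membrane phospholipids and enters separate branches. In the leukotriene branch, the product of Alox5 (5-lipoxygenase), which needs the helper protein encoded by Alox5ap to receive its substrate, is turned by Lta4h into leukotriene B4, an attractant of neutrophils, or by Ltc4s into the cysteinyl leukotrienes, which contract airway muscle and make vessels leaky. In the prostaglandin branch, the cyclooxygenases Ptgs1, present in many resting cells, and Ptgs2, which is induced in inflammation, make the common precursor that Hpgds turns into prostaglandin D2. Alox15 is another lipoxygenase, which makes hydroxy fatty acids and lipoxin precursors. In the lung, the leukotriene enzymes are known from macrophages, mast cells and other leukocytes.

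Alox5 and Ltc4s were the pair of genes whose levels varied most closely together between lungs, and the 250 bases before the start of each gene are shown for that reason, 5′ to 3′ on the gene's own strand, from RefSeq (rat build GRCr8). Both lie on the minus strand, Alox5 at chr4:151251127-151251376 and Ltc4s at chr10:35063595-35063844. Capitals mark the matches to the motifs searched.
Alox5: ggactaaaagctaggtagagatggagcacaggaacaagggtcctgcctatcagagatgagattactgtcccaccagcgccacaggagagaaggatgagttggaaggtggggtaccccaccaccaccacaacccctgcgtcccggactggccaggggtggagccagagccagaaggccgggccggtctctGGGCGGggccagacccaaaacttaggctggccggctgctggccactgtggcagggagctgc
Ltc4s: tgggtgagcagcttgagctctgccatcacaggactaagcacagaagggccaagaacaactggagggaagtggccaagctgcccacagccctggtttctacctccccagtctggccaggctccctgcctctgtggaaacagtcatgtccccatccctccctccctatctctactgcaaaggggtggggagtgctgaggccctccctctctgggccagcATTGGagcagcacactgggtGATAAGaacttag
The motifs were GGGCGG, bound by the Sp family, TATAAA, of the TBP-binding box, CCAAT, bound by NF-Y, GAGGAA, the core that PU.1 binds in leukocytes, GATAAG, bound by the zinc finger factors named after it, TGANTCA for AP-1, TTCNNNGAA for the STAT factors and CACGTG for the clock factors, each sought on both strands. The Alox5 stretch held 1 of them, GGGCGG from 61 to 56 bases before the start, a motif found in 30.5% of the 33469 rat promoters of the same length. The Ltc4s stretch held CCAAT on the opposite strand from 33 to 29 bases before the start, which 34% of promoters hold, and GATAAG from 13 to 8 bases before it, which 6.18% hold. The stretches shared none of these motifs. A match is a description of letters and was not tested as a binding site. Of the 10 genes, 6 had an entry in the RefSeq promoter table.

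All levels below are log2 values, on which a difference of 1 is a doubling. A PEP minus Air difference comes from a weighted model over all 50 arrays (limma) and is given with its SE, so it can depart slightly from the difference of the plain group means. A gene counted as called when the p adjusted over all genes of the comparison was below 0.05. Alox5, Lta4h and Ptgs1 varied too little over the 50 lungs (variances 0.0464, 0.0178 and 0.0362) to pass the variance minimum of 0.05 that the study's methods set, and were tested in the same model without that minimum. Ltc4s and Hpgds had the lowest signals of the 8 genes, with medians of 5.30 and 5.40 over the 50 lungs. The medians of whole arrays lay close by, between 4.92 and 5.11, and low signals are compressed. Lung markers were high in all samples, with Ager, of alveolar type 1 cells, between 11.9 and 12.5, while 1 PEP lung of day 1 (replicate 1) also held liver transcripts (Alb 11.9, against a median of 3.43 over all lungs). Without that lung, the differences of the 8 genes at day 1 lay between -0.21 and 0.06.

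Alox5ap, the 5-lipoxygenase helper, was higher in PEP than in Air lungs at day 21, and it was the only gene of the 8 to be called in any PEP against Air comparison. In the 6 Air lungs of day 21 the lowest, median and highest values were 8.06, 8.45 and 8.52, and in the 6 PEP lungs they were 8.67, 8.83 and 9.20. The groups did not overlap, and all of the PEP lungs lay above the highest Air lung. The difference was 0.53 ± 0.12 (95% interval 0.28 to 0.78, or 1.44-fold, adjusted p = 0.0406 by limma, n = 6 and 6). Of the 5 enzyme genes in that test 1 was called, against 0.219% of the 8202 genes tested (16 genes, 0.195%, higher and 2 genes, 0.0244%, lower in PEP), and 0.671% of genes stood higher in every PEP lung than in any Air lung. The call was close to the threshold. It was lost when any of Air replicates 1, 2, 3, 5 or 6 or PEP replicates 2, 4, 5 or 6 of day 21 was left out (adjusted p from 0.0526 to 0.186), with array medians aligned (0.0648) and with only the day 21 groups in the fit (0.184), while the difference itself stayed between 0.45 and 0.58.

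Alox5 and Ltc4s lay in the same direction at day 21, and neither passed the test. Alox5 had 7.92, 8.20 and 8.49 as lowest, median and highest values in Air, and 8.39, 8.48 and 8.82 in PEP. All 6 PEP lungs were above the Air mean, and the groups overlapped through 1 Air lung, replicate 1. The difference was 0.38 ± 0.11 (unadjusted p = 0.00139, adjusted p = 0.114 by limma without the variance minimum, where 0.309% of 14557 genes were called and 14.8% had an unadjusted p below 0.05). Ltc4s had 4.11, 4.85 and 5.36 in Air and 5.00, 5.15 and 5.58 in PEP. Its Air lungs were the most scattered of the non-implanted groups (SD 0.45 against 0.21 in PEP), and the ranges overlapped although all 6 PEP lungs exceeded the Air mean. The difference was 0.47 ± 0.19 (unadjusted p = 0.0153, adjusted p = 0.235), and without Air replicate 5 it was 0.30 (adjusted p = 0.524). Lta4h, the hydrolase of the leukotriene B4 arm, differed by -0.06 ± 0.08 at day 21, with a 95% interval from -0.22 to 0.09.

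**Figure D1:**
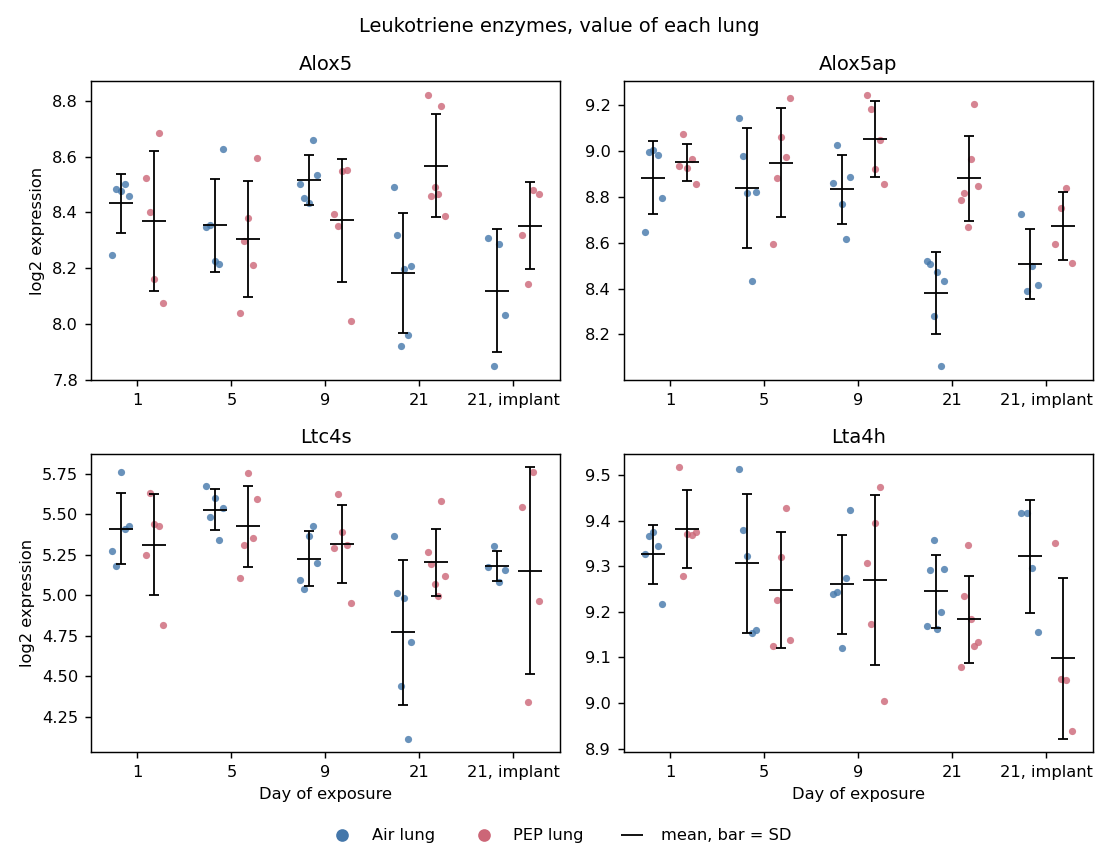
Log2 expression of the leukotriene enzymes in each of the 50 lungs by day of exposure, with Air in blue, PEP in red, the group mean as a horizontal line and the SD as bars. At day 21 the Alox5ap values of Air (8.06 to 8.52) lie below those of PEP (8.67 to 9.20), whereas the groups of the other panels overlap.

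Before day 21 the leukotriene enzymes did not separate the exposures. Alox5ap read 8.65, 9.00, 9.00, 8.98 and 8.80 in the Air lungs of day 1 and 8.93, 9.07, 8.93, 8.97 and 8.86 in the PEP lungs. These values overlapped, and the difference was 0.05 ± 0.12. At day 5 the Air lungs read 9.15, 8.98, 8.82, 8.43 and 8.82 and the PEP lungs 8.59, 8.89, 9.06, 8.98 and 9.23, again overlapping, with a difference of 0.13 ± 0.12. At day 9 all 5 PEP lungs (9.25, 9.19, 8.92, 9.05 and 8.86) exceeded the Air mean of 8.83, while 1 Air lung reached 9.03, and the difference was 0.24 ± 0.13 (adjusted p = 0.924). The PEP minus Air difference of Alox5ap was thus above 0 at all 4 days, and its mean over them was 0.24 ± 0.06 (unadjusted p = 0.000343, adjusted p = 0.125 by limma), which did not pass the test. In that comparison 0.0244% of genes were called and 9.56% had an unadjusted p below 0.05. How many of all genes were above 0 at all 4 days was not counted. Alox5 differed by -0.09 ± 0.11, -0.02 ± 0.12 and -0.14 ± 0.12 at days 1, 5 and 9, and Ltc4s by -0.12 ± 0.18, -0.08 ± 0.19 and 0.10 ± 0.19. Whether the PEP effect differed between the 4 days was asked with an F test in the same model, which called 0 of the 8202 genes (655 had an unadjusted p below 0.05) and 0.00687% of genes without the variance minimum. The unadjusted p was 0.00869 for Alox5 and 0.0407 for Alox5ap (adjusted 0.557 and 0.612), and 0.11 for Ltc4s.

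Over the days, the level of Alox5ap and Ltc4s changed in Air. The mean of Alox5ap in Air was 8.89 ± 0.16 at day 1, 8.84 ± 0.26 at day 5, 8.83 ± 0.15 at day 9 and 8.38 ± 0.18 at day 21 (SD, n = 5, 5, 5 and 6). In PEP it was 8.95 ± 0.08, 8.95 ± 0.24, 9.05 ± 0.17 and 8.88 ± 0.18. Differences between days passed the F test in Air (adjusted p = 0.0037) and did not in PEP (adjusted p = 0.774), while the test of the PEP effect by day, given above, did not pass. Ltc4s was also lowest at day 21 in Air, with means of 5.41, 5.53, 5.22 and 4.77 at days 1, 5, 9 and 21 (adjusted p = 0.0093), and PEP means of 5.31, 5.42, 5.31 and 5.20 (adjusted p = 0.839). Leaving out Air replicate 5 of day 21, the lowest lung, took the Ltc4s test in Air to an adjusted p of 0.0832. For Alox5, with Air means of 8.43, 8.35, 8.52 and 8.18, the test in Air gave an adjusted p of 0.0836, and 0.0385 without Air replicate 1 of day 21, and in PEP it gave 0.411. In Air, 18.5% of the 8202 genes were called across days, and in PEP 4.82% (17.6% and 5.12% without the variance minimum). The day of exposure is also the age of the rat and the time since arrival, which cannot be told apart here.

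Markers of several leukocyte types, though not of all, lay higher in the PEP than in the Air lungs of day 21. A marker score is the mean, over the genes of a list, of each gene's departure from its average over the 50 lungs. In the Air lungs of day 21 the macrophage and monocyte score lay between -0.42 and -0.07, and in the PEP lungs between -0.20 and 0.12, and 7 of the 7 macrophage genes tested had a higher estimate in PEP (3 with an unadjusted p below 0.05, 0 called). Without the variance minimum, 7 of the 10 macrophage genes named had a higher estimate in PEP. The T cell score lay between -0.79 and -0.32 in Air and between -0.15 and 0.15 in PEP, with 9 of 10 genes higher and 1 called, and the NK cell score between -0.79 and -0.20 in Air and between -0.20 and 0.65 in PEP, with 8 of 8 genes higher and 0 called. Of all 8202 genes at day 21, 46.1% had a higher estimate in PEP, 14.3% an unadjusted p below 0.05, and 0.219% were called. The neutrophil score spanned -0.64 to -0.19 in Air and -0.56 to 0.23 in PEP. The mast cell and basophil score, by contrast, was -0.22 in Air and -0.23 in PEP, with 5 of 9 genes higher, and the eosinophil score lay between -0.20 and 0.28 in Air and between -0.30 and 0.17 in PEP, with 2 of 5 genes higher, and 0 genes of either list were called. In the other direction, 0 of 6 markers of cardiac muscle, which sheathes the pulmonary veins in rats, and 0 of 6 of ciliated and secretory airway cells had a higher estimate in PEP, with medians of -1.57 and -0.78, and 0 in each list were called. At days 1, 5, 9 and 21, mean T cell scores were -0.02, -0.08, 0.17 and -0.53 in Air and -0.04, -0.05, 0.15 and -0.03 in PEP. Macrophage and monocyte means were 0.06, -0.10, 0.10 and -0.25 in Air and 0.14, -0.07, 0.04 and -0.02 in PEP. For both lists, Air of day 21 was thus the lowest of these groups. With the implant, the T cell means were 0.32 in Air and 0.35 in PEP, and the macrophage means 0.08 and 0.10. The part of any of these cell types in the Alox5ap difference was not tested, and in whole lung fewer cells of a type and less RNA per cell cannot be told apart.

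**Figure D2:**
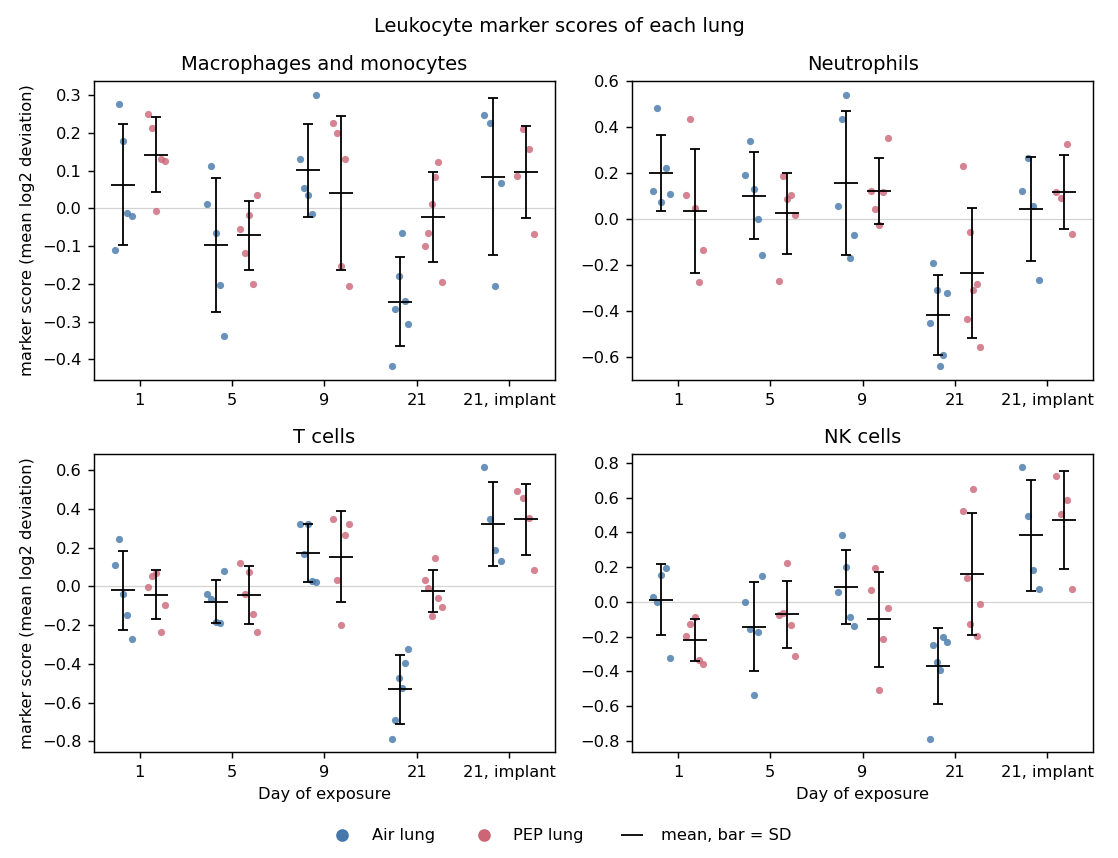
Marker scores of 4 leukocyte types in each lung (mean log2 departure from the average of the 50 lungs) by day of exposure, with Air in blue, PEP in red, group means as lines and SD as bars. The T cell scores of the Air lungs of day 21 (-0.79 to -0.32) lie below all PEP lungs of that day (-0.15 to 0.15).

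Within groups, the leukotriene genes also rose and fell together from lung to lung. After each group's mean was removed, Alox5 correlated over the 50 lungs with Ltc4s (Pearson's r = 0.563, Spearman's rho = 0.531, adjusted p = 0.00336 and 0.00896 by permutation within groups) and with Alox5ap (r = 0.47, rho = 0.47, adjusted p = 0.0136 and 0.0239). Alox5ap correlated with Ltc4s (r = 0.447, rho = 0.452, adjusted p = 0.0136 and 0.0258). Without the 2 lungs farthest from the median on the first gene, r was 0.547, 0.46 and 0.417. Of the 28 pairs of the 8 genes, the other 25 had an r between -0.203 and 0.307 and an adjusted p of 0.297 or more by either measure. Lta4h, the remaining leukotriene enzyme, was not among the pairs that passed (r = 0.0613 with Alox5). Single lungs show the pattern. Air replicate 5 of day 21 was the lowest Air lung of that day in Alox5ap (8.06) and Ltc4s (4.11) and had 7.96 for Alox5, whereas Air replicate 1 was the highest in all of them (8.52, 5.36 and 8.49). The lowest PEP value of Ltc4s, 4.34 in implanted replicate 2, came from the lung with the lowest Alox5 of its group, 8.14. Alox5ap in that lung went the other way, with 8.75 against a group mean of 8.67.

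**Figure D3:**
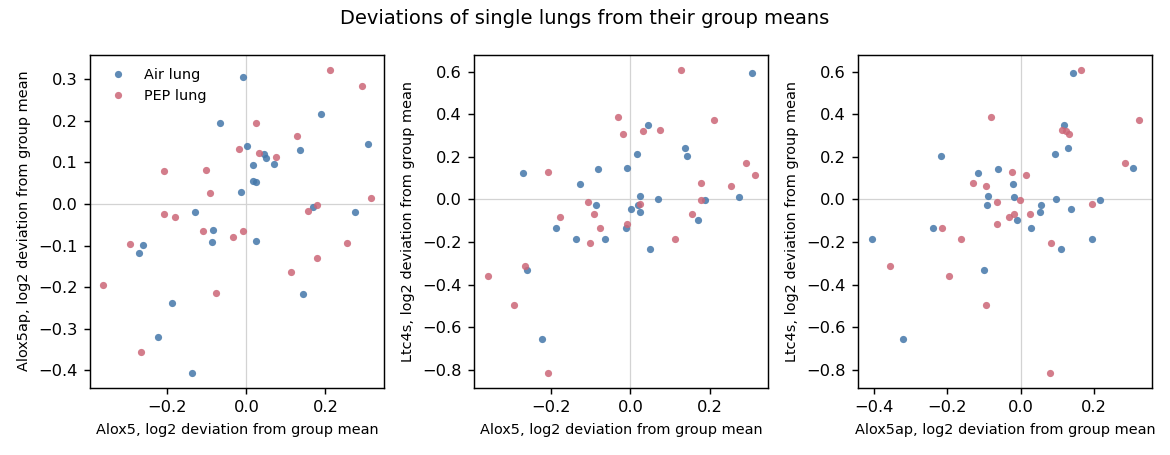
Departure of each lung from its group mean (log2) for the 3 pairs of Alox5, Alox5ap and Ltc4s, with Air lungs in blue and PEP lungs in red. The points of all 3 panels run from lower left to upper right, with r = 0.47, 0.563 and 0.447 from left to right.

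The same departures were set against the 15 marker scores, 120 pairs in all, of which 0 passed by r and 3 by rho after adjustment. Alox5ap followed the macrophage and monocyte score (r = 0.483, rho = 0.529, adjusted p = 0.0648 and 0.0438 by permutation, r = 0.485 without the 2 lungs farthest from the median score). Nearly as strong, though not passing, were its inverse correlations with 2 other scores. These were ciliated and secretory airway epithelium (r = -0.436, rho = -0.463, adjusted p = 0.141 and 0.0909 by permutation) and cardiac muscle (r = -0.404, rho = -0.396, adjusted p = 0.165 and 0.211). Ptgs1 followed the fibroblast score (r = 0.403, rho = 0.468, adjusted p = 0.0648 and 0.0438) and the alveolar epithelium score (r = 0.557, rho = 0.492, adjusted p = 0.0564 and 0.044). Of the 7 alveolar genes named, 0 passed the variance minimum, so that score rests on genes that varied little between lungs. Neither Alox5 nor Ltc4s passed with any list.

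Lta4h was the steadiest of the 8 genes, with group means from 9.10 to 9.38. Its widest PEP against Air difference was in the implanted lungs, where the Air lungs read 9.42, 9.42, 9.30 and 9.16 and the PEP lungs 9.35, 9.05, 9.05 and 8.94. Of the PEP lungs 3 lay below all Air lungs, and the groups overlapped through the other 1, with a difference of -0.21 ± 0.09 (unadjusted p = 0.0232, adjusted p = 0.716 by limma without the variance minimum, where 0% of genes were called, and 0.0122% with it).

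Alox15 varied most, with a variance of 0.459 and group means from 6.09 to 7.77, and its level changed over the days in both exposures, with the lowest means at day 21. The Air lungs read 7.51, 7.51, 6.96, 7.69 and 8.19 at day 1, 7.70, 7.78, 6.99, 7.16 and 6.55 at day 5, and 7.97, 7.26, 8.06, 7.46 and 7.67 at day 9. At day 21 the lowest, median and highest of the 6 Air lungs were 5.82, 6.58 and 7.40. The Air lungs of day 21 were thus mostly below those of day 9, with 1 of the 6 above the lowest of them, and the F test across days passed (adjusted p = 0.00269). In PEP the mean was 7.77 ± 0.37, 7.45 ± 0.24, 7.12 ± 0.28 and 6.62 ± 0.44 at days 1, 5, 9 and 21 (adjusted p = 0.00733). Both calls were kept in all 58 alternatives. PEP minus Air was 0.09 ± 0.23 and 0.14 ± 0.24 at days 1 and 5 and 0.02 ± 0.24 at day 21. At day 9 the PEP lungs read 6.82, 6.90, 7.42, 7.41 and 7.06, all below the Air mean of 7.68 while the groups overlapped, and the difference was -0.54 ± 0.24 (unadjusted p = 0.0307, adjusted p = 0.924), at a day when 0 of 8202 genes were called and 5.15% had an unadjusted p below 0.05.

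**Figure D4:**
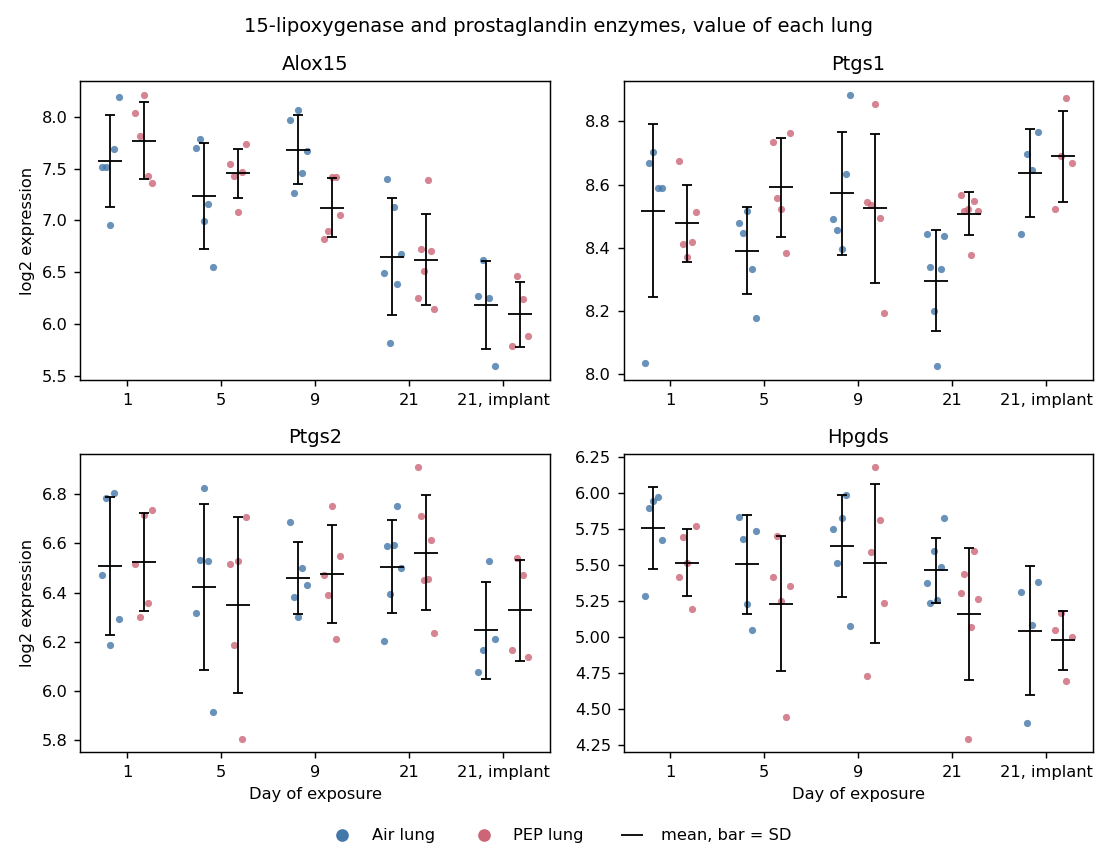
Log2 expression of Alox15 and of the prostaglandin enzymes in each of the 50 lungs by day of exposure, with Air in blue, PEP in red, group means as lines and SD as bars. Alox15 goes from group means of 7.57 and 7.77 at day 1 to 6.18 and 6.09 in the implanted lungs of day 21, while Ptgs2 stays between 6.25 and 6.56.

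Among the prostaglandin enzymes, no PEP against Air difference passed the test. Ptgs1, the resting cyclooxygenase, had 8.02, 8.33 and 8.44 as lowest, median and highest values in the Air lungs of day 21 and 8.38, 8.52 and 8.57 in the PEP lungs. All 6 PEP lungs were above the Air mean and the groups overlapped, with a difference of 0.20 ± 0.10 (unadjusted p = 0.0462, adjusted p = 0.328). Ptgs2, the inducible cyclooxygenase, had group means between 6.25 and 6.56, and the 95% intervals of its 5 PEP minus Air differences lay within -0.45 and 0.48. Hpgds, the prostaglandin D synthase of mast cells and other leukocytes, had a lower estimate in PEP in all 5 comparisons, from -0.32 ± 0.22 at day 21 to -0.05 ± 0.26 in the implanted lungs. How many of all genes kept 1 sign in all 5 was not counted. The mean difference of Hpgds over the 4 days without implant was -0.25 ± 0.11 (unadjusted p = 0.0311, adjusted p = 0.479 by limma). In that comparison 9.56% of the 8202 genes had an unadjusted p below 0.05. At day 21 its Air lungs had 5.24, 5.43 and 5.83 as lowest, median and highest values and its PEP lungs 4.30, 5.28 and 5.59. Only 1 PEP lung exceeded the Air mean, and the lowest, replicate 3, stood well under the others, which began at 5.07.

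**Figure D5:**
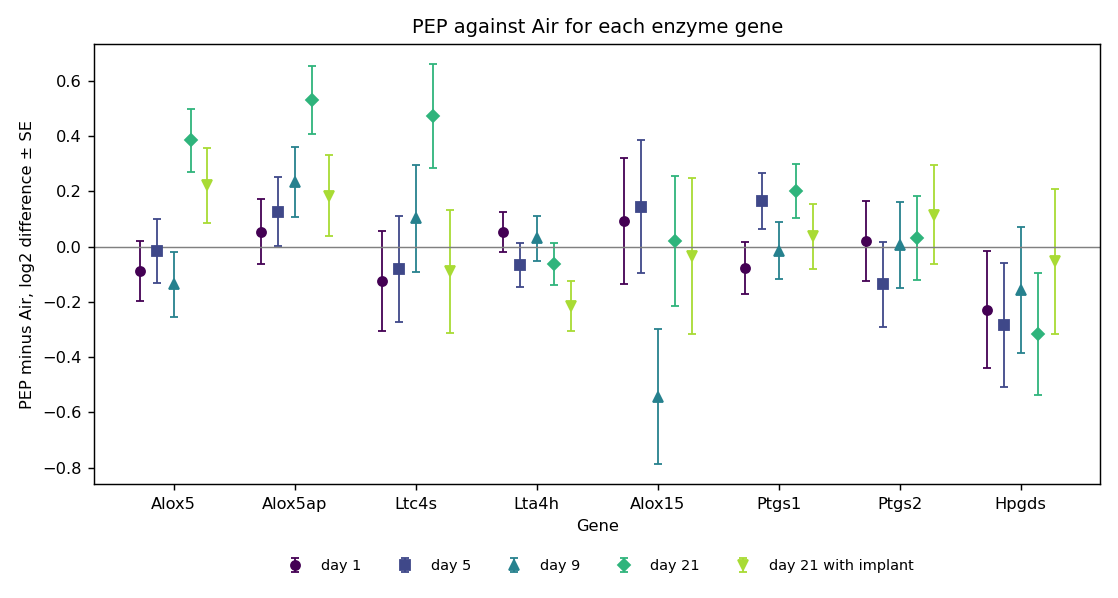
PEP minus Air difference (log2, with its SE as bars) of each of the 8 enzyme genes, by day of exposure, with the implanted rats as a set of their own. The points of Alox5ap, Ltc4s and Alox5 at day 21 (0.53, 0.47 and 0.38) are the highest of the plot, and Alox15 at day 9 (-0.54) is the lowest.

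In the implanted rats of day 21, the Alox5ap values were 8.73, 8.39, 8.50 and 8.42 in Air and 8.59, 8.75, 8.84 and 8.51 in PEP. All 4 PEP lungs exceeded the Air mean and the groups overlapped, with a difference of 0.19 ± 0.15 (adjusted p = 0.998). Alox5 read 8.31, 7.85, 8.29 and 8.03 in Air and 8.32, 8.14, 8.48 and 8.47 in PEP, also with all 4 PEP lungs above the Air mean, and differed by 0.22 ± 0.13 (adjusted p = 0.833). Ltc4s read 5.18, 5.30, 5.08 and 5.15 in Air and 5.54, 4.34, 5.76 and 4.97 in PEP, so that the PEP lungs spread to both sides of Air (-0.09 ± 0.22). The PEP effect with the implant minus that without it was -0.35 ± 0.19 for Alox5ap and -0.56 ± 0.29 for Ltc4s (adjusted p = 0.761 and 0.748), and 0 of 8202 genes were called for that difference (554 had an unadjusted p below 0.05).

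The implant itself was compared within each exposure at day 21, where 6.91% of genes were called in Air and 3.8% in PEP (6.53% and 4.68% without the variance minimum). None of the 8 enzyme genes was. Ptgs1 came closest, with Air lungs at 8.44, 8.70, 8.64 and 8.77 with the implant against 8.02 to 8.44 without it, and the highest lungs without the implant just reached the lowest with it. The difference was 0.34 ± 0.11 (unadjusted p = 0.00338, adjusted p = 0.051) and passed in 11 of 57 alternatives. In PEP, Ptgs1 differed by 0.18 ± 0.11. Alox15 was lower on average in the implanted lungs of both exposures, by -0.42 ± 0.26 in Air and -0.48 ± 0.26 in PEP, with all implanted lungs below the mean of the non-implanted ones (adjusted p = 0.349 and 0.348). Mast cells are known to express both Hpgds and Ltc4s. The mast cell and basophil score was 0.37 and 0.49 in implanted Air and PEP lungs against -0.22 and -0.23 in the lungs without the implant, while Hpgds differed by -0.44 ± 0.25 in Air and -0.18 ± 0.24 in PEP and Ltc4s by 0.45 ± 0.21 and -0.12 ± 0.20 (adjusted p from 0.19 to 0.848). Without Air replicate 5 of day 21, the implant difference of Ltc4s in Air was 0.28 (adjusted p = 0.475). A rise with the implant was not particular to the mast cell list. In Air, 2 of 9 mast cell genes were called higher, beside 8 of 10 T cell, 4 of 5 B cell and 3 of 8 NK cell genes. For neutrophils it was 4 of 10 genes and for eosinophils 0 of 5. In PEP, 3 of 9 mast cell genes were called higher, beside 1 of 10 T cell, 0 of 5 B cell and 1 of 8 NK cell genes. The part of mast cells in the Hpgds and Ltc4s values was not tested.

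When the 10 groups were ordered by their mean level, the gap between neighbours was below the spread between lungs of a group for Alox5, Alox5ap, Lta4h, Ptgs1, Ptgs2 and Hpgds throughout. In Ltc4s 1 of the 9 gaps exceeded it, that of 0.38 between the implanted PEP lungs and the Air lungs of day 21, which were the lowest group. In Alox15 2 of the 9 did, and the wider, of 0.47, stood between the PEP lungs of day 9 and the Air lungs of day 21.

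The other genes of the pathway were read from 4 lists. In each of the 5 PEP against Air comparisons, 0 genes of any list were called. At day 21 the median difference was 0.08 over 8 tested genes that release arachidonic acid, 0.03 over 11 other synthases, 0.14 over 11 receptors and -0.03 over 7 genes of breakdown and transport, beside -0.02 over all 8202 genes, of which 46.1% had an estimate above 0 against 9 of the 11 receptors. The genes with the smallest p at that day were Ptgfr, the receptor of prostaglandin F2α, with 4.29 ± 0.38 in Air and 5.04 ± 0.19 in PEP (SD, n = 6 and 6, difference 0.76 ± 0.22, adjusted p = 0.13), the prostaglandin transporter Slco2a1 (0.32 ± 0.13, adjusted p = 0.229) and the prostacyclin receptor Ptgir (0.36 ± 0.15, adjusted p = 0.258). At day 1 the 3 with the smallest p included Pla2g4c, a cytosolic phospholipase (-0.47 ± 0.17), and the epidermal-type lipoxygenase Aloxe3 (0.30 ± 0.12), and at day 5 they were Aloxe3 (0.40 ± 0.13), the secreted phospholipase Pla2g5 (0.48 ± 0.18) and Cyp4f5, of a cytochrome family that breaks leukotrienes down (0.47 ± 0.20), with adjusted p from 0.599 to 0.843. At day 9 they included Ptger3 (-0.34 ± 0.18) and Ptgdr2 (-0.35 ± 0.19), receptors of prostaglandins E2 and D2, and in the implanted rats the secreted phospholipase Pla2g2a (-0.45 ± 0.27) and the cysteinyl leukotriene receptor Cysltr2 (-0.31 ± 0.20).

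Across days in Air, 3 of the 11 receptors, 2 of the 11 other synthases, 1 of the 7 genes of breakdown and transport and 0 of the 8 releasing genes were called by the F test, and 0 of these genes were in PEP. Of all 8202 genes, 18.5% were called in Air and 4.82% in PEP, so that nothing particular to these lists is read from their counts. Ephx1, the microsomal epoxide hydrolase, rose in Air from 9.03 ± 0.45 at day 1 to 10.10 ± 0.43 at day 21 (adjusted p = 0.000437). The cysteinyl leukotriene receptor Cysltr2 had Air means of 6.02, 5.66, 6.21 and 5.49 at days 1, 5, 9 and 21 (adjusted p = 0.0046), the leukotriene B4 receptor Ltb4r 4.94, 4.40, 4.71 and 4.29 (0.0436), and the prostaglandin D2 receptor Ptgdr2 5.90, 5.65, 5.97 and 5.33 (0.0234). These called receptors had their lowest Air mean at day 21, as did Slco2a1 (10.6 at day 21 against 10.8 to 11.0 before, adjusted p = 0.0359), whereas Aloxe3 peaked at day 9 (4.51, adjusted p = 0.00152). With the implant, 1 of the 8 releasing genes and 1 of the 11 receptors were called in Air, beside 6.91% of all genes. These were Pla2g2d, a secreted phospholipase (9.14 ± 0.19 without and 9.77 ± 0.26 with it, 0.67 ± 0.18, adjusted p = 0.0155), and Ptgir (6.45 ± 0.17 and 7.02 ± 0.25, 0.60 ± 0.17, adjusted p = 0.0225). In PEP neither was called, with 0.22 ± 0.18 for Pla2g2d and 0.51 ± 0.17 for Ptgir (adjusted p = 0.595 and 0.0698), beside 3.8% of all genes.

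The genes most like each enzyme from lung to lung were found among the 8202 tested by Pearson's r of departures from group means over the 50 lungs, for the 5 enzymes that passed the variance minimum, and are given as a description. For Alox5ap they were the histone genes Hist1h4m (r = 0.655) and H2ac21 (0.615) and Tnfsf13b (0.603), a cytokine that keeps B cells alive. For Ltc4s they were the kinase gene Sbk2 (0.579), Pou2f3 (0.568), a transcription factor that tuft cells need in mice, and Sh2d7 (0.562). For Alox15 they were Ube2o (0.653), a ubiquitin-conjugating enzyme of maturing red cells in mice, Fignl2 (0.642) and the RNA-binding protein gene Ybx3 (0.583). For Ptgs2 they were the chloride channel gene Cftr (0.556), Acaa2 (0.538), of fatty acid oxidation in mitochondria, and Foxb2 (0.517). For Hpgds they were the olfactory receptor gene Or12d14b (0.701), the laminin receptor chain Itga7 (0.571) and Spata25 (0.549).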

How the data were processed

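The authors deposited a table of log2 values, 36685 probe sets of the Affymetrix Rat Gene 2.1 ST array in 50 lung samples. Per the submitters' notes these were made by robust multi-array averaging (RMA), which quantile-normalizes the arrays, with oligo in R 3.4, and limma was named. Quantile normalization removes any shift common to most genes, and low signals are compressed. Array medians lay between 4.92 and 5.11, the table held 0 columns of no sample, and no 2 arrays were identical. Arrays have no read depth, so their number (4 to 6 per group) limits the precision. A description label speaks of blood, while the tissue and source labels say lung, and the samples were treated as lung.

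Groups were taken from the titles. The annotation gave 1 gene for 14824 probe sets, several for 829 and none here for 21032, and the brightest set stood for a gene. A linear model over the 10 groups was fitted with limma 3.58.1 in R 4.3.3, with gene-by-gene array weights (0.59 to 1.71) and empirical Bayes moderation, to the 8202 of 14557 genes with a variance of 0.05 or more. Two-sided p-values were corrected by Benjamini-Hochberg over all genes of a comparison. Correlations used permutation within groups (100000 resamples). The model was also run on simulated data with independent genes and lungs and equal array quality, which does not test it for paired lungs or unequal arrays. The text names all 10 genes, of which 8 were analysed, a further pathway gene when called or among the 3 smallest p of a PEP against Air comparison, and the 3 genes most correlated with an enzyme. The genes, lists and tests were chosen with earlier results of these data known, and the correlations between enzymes after their values were seen. Alternatives were equal weights, no variance minimum, median alignment, all probe sets, only the groups compared, a replicate block, robust or intensity-trend moderation and leaving out each array.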

Additional observations from a re-analysis of the deposited data

Results flagged for a closer look

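For each of the 8 enzyme genes, the lungs of each of the 10 groups were searched for a single lung far from the rest, by the gap to its nearest neighbour against the range of the group (Dixon's 95% critical value). This marked 3 of 80 sets of values, and chance marks about 1 in 20. Air replicate 1 of day 1 stood low in both Alox5 (8.25, with the others between 8.46 and 8.50) and Ptgs1 (8.04, with the others between 8.59 and 8.70). PEP replicate 4 of day 21 stood low in Ptgs1 (8.38, with the others between 8.52 and 8.57).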

How the results depend on the processing

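Of 58 alternatives, 50 left out 1 array each and 8 changed a setting. Of the 72 differences of the 8 genes, 24 changed sign in some alternative, none of them above 0.16 in size or below an unadjusted p of 0.312, and 0 of the 10 with an unadjusted p below 0.05 did. Alox5ap at day 21 kept its call in 47 of 58, but most leave-outs removed a lung of groups not compared. Every leave-out that ended the call removed a lung of the groups compared. Among those lungs, the call was kept only without Air replicate 4, PEP replicate 1 or PEP replicate 3. The Alox5ap difference was 0.52 (adjusted p = 0.0648) with array medians aligned and 0.53 (0.184) with only the groups compared, and 0.45 to 0.58 when 1 array was left out (adjusted p 0.0277 to 0.186). The implant difference of Ptgs1 in Air gained a call with the replicate block (0.37, 0.0373) and with the intensity trend (0.34, 0.0404), and in 9 of 50 leave-outs, with values from 0.28 to 0.40. Across days in Air, the adjusted p spanned 0.00337 to 0.0832 for Ltc4s, 0.0385 to 0.235 for Alox5 and 0.031 to 0.292 for Ptgs1 when 1 array was left out. At day 21, 4 of the 6 same-numbered Air and PEP pairs had a correlation of departures above 0.1 and all 6 were above 0 (0.0532 to 0.286), against 0 above 0.1 among the other 19 (-0.356 to 0.0767). Since not every pair passed 0.1, the samples were not treated as paired, although the day 21 correlations reached higher than the other 19. A pairing within day 21 was therefore not modelled. That rule does not show that the lungs were independent, and the day 21 p-values, that of Alox5ap included, assume unpaired lungs. The replicate block fitted a single shift per replicate number, shared by all 10 groups, so it did not model such pairs either. With it, Alox5ap at day 21 was 0.53 (adjusted p = 0.0345 by limma). The replicate block gave 25 called genes at day 21 and 3 at day 1 and ended no call of an enzyme gene.

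The count of called genes at day 21, 18, became 37 with equal weights, 45 without the variance minimum, 5 with medians aligned and 0 with only the groups compared, and 1 to 37 when 1 array was left out. The 1 gene called in the implanted rats became 0 with equal weights, no variance minimum, medians aligned, all probe sets, only the groups compared and robust moderation (0 to 4 in the leave-outs). Without the variance minimum the mean of 4 days gave 33 in place of 2 (0 to 4 in the leave-outs), the implant 951 in place of 567 in Air and 681 in place of 312 in PEP, and days 2564 in place of 1516 in Air and 745 in place of 395 in PEP. With only the groups compared, the implant gave 277 in Air and 101 in PEP, and the leave-outs 357 to 608 and 155 to 323. The PEP effect by day gave 1 with equal weights, no variance minimum and the intensity trend, and 0 to 1 in the leave-outs, as did days 1 and 9 and the difference between implanted and other rats. The causes of these shifts were not tested beyond the change of genes or samples itself.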

Other observations

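Ptgdr, the receptor through which prostaglandin D2 acts on vessels and leukocytes, had an estimate above 0 in all 5 PEP against Air comparisons, none of them called, and was picked out after its values were seen. The share of all genes above 0 in all 5 was not counted, so nothing particular to Ptgdr is read from this. Its mean was 4.18 ± 0.37 in Air and 4.55 ± 0.28 in PEP at day 1 (difference 0.42 ± 0.19), 3.96 ± 0.46 and 4.48 ± 0.16 at day 9 (0.55 ± 0.21), and 3.56 ± 0.31 and 4.09 ± 0.26 with the implant (0.51 ± 0.24, mean ± SD, n = 5, 5 and 4 per group). The ranges overlapped at each of these times, as at day 1, where the highest Air lung read 4.58 and the lowest PEP lung 4.21. At day 5 the difference was 0.16 ± 0.20 and at day 21 without the implant 0.14 ± 0.20, and the mean over the 4 days was 0.32 ± 0.10 (adjusted p = 0.222 by limma). None of the 5 single differences was called (adjusted p of 0.727, 0.974, 0.889 and 0.807 at days 1, 5, 9 and 21 and 0.869 with the implant), and the values lie near the low end of the array, where signals are compressed.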
